A study of Mus musculus with 10 samples.

Results

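Transcripts of 10 integrin subunit genes were followed in microglia from adult mouse brain and from cultured brain tissue. The genes were *Itga4*, *Itga5*, *Itga6*, *Itga9*, *Itgal*, *Itgav*, *Itgb1*, *Itgb2*, *Itgb5* and *Itgb7*, taken by name from the 18281 gene symbols of the count tables, and all 10 were found. Each was read in 10 single cell libraries, 2 for each of 5 groups of C57BL/6 microglia. Adult microglia were isolated from the brains of mice at least 10 weeks old. *In vitro* microglia came from mixed glial cultures of cortices of pups at postnatal day 2, kept for 3 weeks and collected from the medium at day 22. Slice microglia came from coronal brain slices of pups at postnatal days 1 to 4, without cerebellum and olfactory bulbs, cultured on membranes for 1 day, 1 week or 3 weeks, and hPDGF was added to their medium. Cells of every group were sorted as live, CD11b high and CD45 intermediate cells, and no uncultured pup microglia were among the libraries, so that culture and the age of the donor animal cannot be told apart in any comparison with adult. The paper calls the 2 samples of a group independent, and the sources do not say whether they came from separate animals. The p-values therefore measure the spread between libraries, which may be technical.

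Integrins are receptors made of an alpha and a beta subunit that span the cell membrane, bind proteins of other cells or of the extracellular matrix, and connect them through talin and kindlins to the actin cytoskeleton. The alpha L subunit (*Itgal*) and the beta 2 subunit (*Itgb2*) form a leukocyte receptor for ICAM proteins, and beta 2 also pairs with alpha M, the CD11b protein used in the sort. Microglia, the resident macrophages of the brain, use integrins to attach, to migrate and to take up debris. The alpha 4 subunit pairs with beta 1 or beta 7 and binds VCAM1, fibronectin or MAdCAM1, the alpha 5, alpha 6 and alpha 9 subunits pair with beta 1 or, for alpha 6, also with beta 4, and alpha V pairs with beta 5 among others.

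The tables held 19637 barcodes, of which 19059 passed limits of at most 5% mitochondrial UMIs, at least 400 genes and at most 30000 UMIs. A UMI is a molecular identifier, so that 1 UMI counts 1 captured mRNA. The libraries held from 61 to 3799 cells and from 385373 to 39689540 UMIs, and slice 1 week was the shallowest group with 148 and 61 cells. Median UMIs per cell were lowest in adult (3257 and 1858) and highest *in vitro* (12858 and 13966). All 10 microglia markers, among them *Cx3cr1*, *P2ry12* and *Tmem119*, were detected in every library, and their summed level was between 62538 and 63262 CPM (UMIs scaled to a library total of 1e6) in adult, 31356 and 40557 in slice 3 weeks, 20891 and 24906 in slice 1 week, 16675 and 19100 *in vitro*, and 11586 and 12791 in slice 1 day. Neutrophil markers were summed at 7660 and 22432 CPM in slice 1 day and 40260 and 955 in slice 1 week, and at most 8.39 CPM in the other 6 libraries. At least 1 of 2 limits, neutrophil markers over 1% or monocyte markers over 0.05% of a cell's UMIs, was passed by 23.4% and 19.0% of slice 1 day cells, 20.3% and 4.92% of slice 1 week cells and at most 2.81% of the cells of any other library. Adult replicate 1 and slice 3 weeks replicate 1 carry one study label and the other 8 libraries another. Any 2 libraries shared at most 23 barcodes, and 0 of the 228 shared pairs had a count correlation over 0.95.

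Summed UMI counts, 1 value per gene and library, were tested with edgeR, and a gene was called at FDR < 0.05 with a fold change over 1.5. Of the 10 integrins, 3 were called higher and 2 lower *in vitro* than in adult, beside 22.4% and 28.5% of the 12155 genes tested (50.9% in either direction). Against adult, 4 were called higher and 4 lower in slice 1 day, beside 24.9% and 25.4% of all genes (50.3% in either direction). The counts were 3 higher and 2 lower in slice 1 week, beside 15.0% and 13.6% (28.6% in either direction), and 4 higher and 2 lower in slice 3 weeks, beside 18.0% and 17.5% (35.5% in either direction). Between *in vitro* and slice 3 weeks 3 integrins were higher *in vitro* and 4 lower, beside 13.3% and 20.0% (33.3% in either direction), and from slice 1 day to slice 3 weeks 4 were higher and 5 lower, beside 13.9% and 12.8% (26.8% in either direction). The median log2 fold change over the 10 genes was −0.03, −0.04, 0.28, 0.28, −0.26 and −0.29 in the 6 comparisons in this order, beside −0.11, −0.06, −0.08, −0.03, −0.10 and 0.05 over all genes. With TMM scaling the members thus moved in both directions in each comparison. Counted as UMIs per cell, without scaling for depth, the calls went 1 way in each, at 8 higher and 0 lower *in vitro*, 7 and 0 in slice 1 day, 6 and 0 in slice 1 week, 6 and 0 in slice 3 weeks, 5 higher *in vitro* than in slice 3 weeks and 0 lower, and 0 higher and 5 lower from slice 1 day to slice 3 weeks. *Itgb7* passed the filter on low counts only through the slice 1 day and slice 1 week libraries, so its own calls are no support for the counts, and without it the integrins were 3 higher and 4 lower in slice 1 day, 2 higher and 2 lower in slice 1 week, and 4 higher and 4 lower from slice 1 day to slice 3 weeks.

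**Figure D1:**
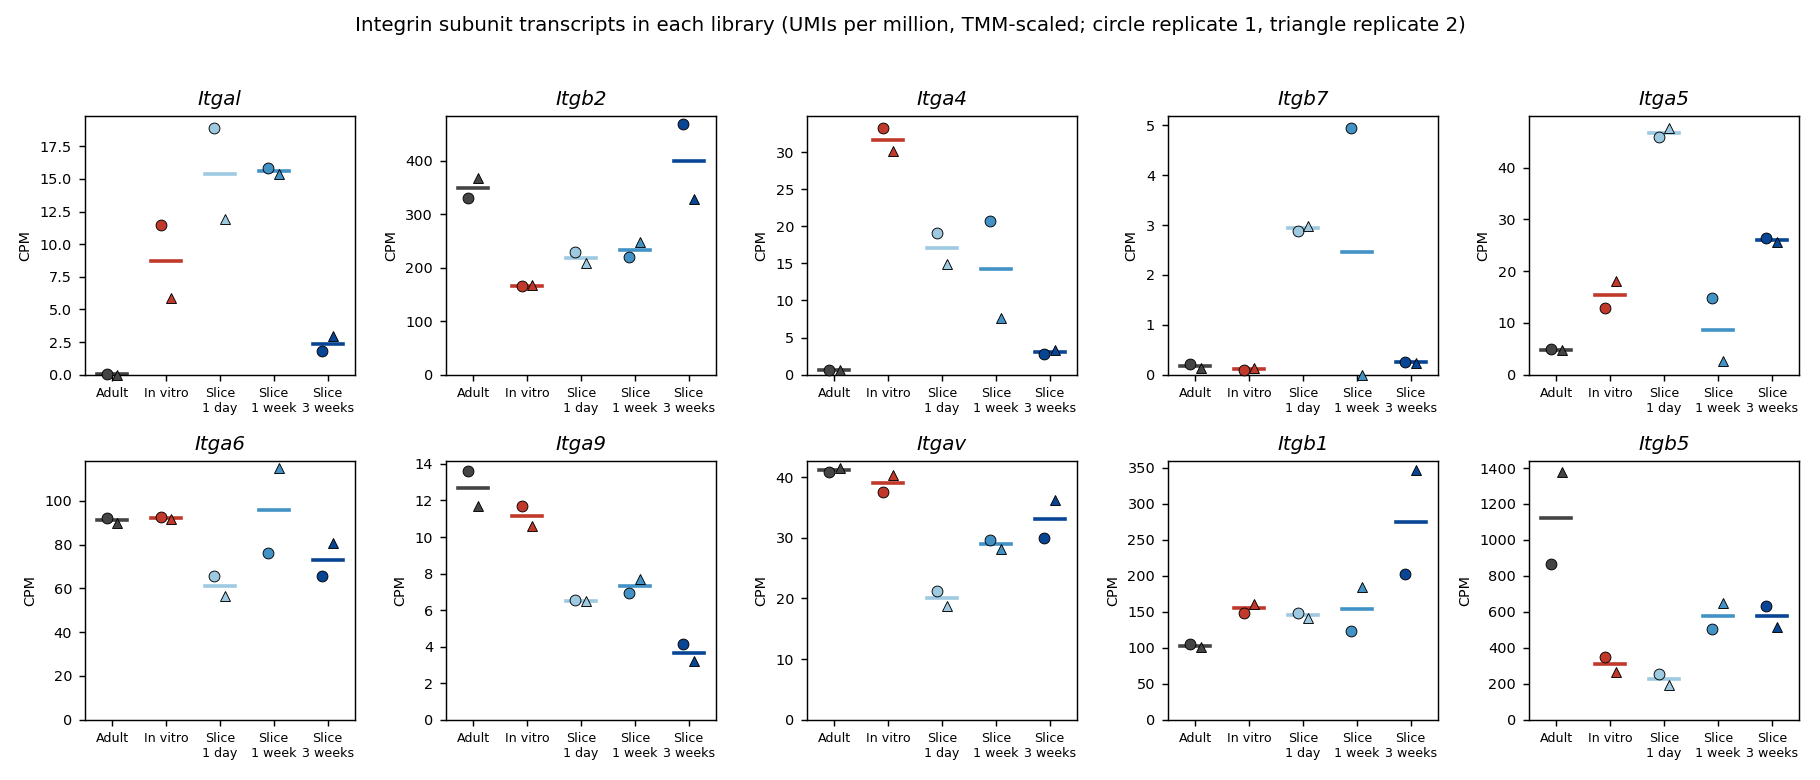
Levels of the 10 integrin transcripts, in CPM with TMM scaling (vertical axes, from 0), in the 2 libraries (circle, replicate 1; triangle, replicate 2) and as the group mean (line) of each group. *Itgal* and *Itga4* sit near 0 in adult and above it in every cultured group, *Itgb5* is highest in adult, and *Itgb1* is highest in slice 3 weeks.

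The levels are parts of a library's total after TMM scaling, and in summed counts fewer cells with a transcript and less of it per cell cannot be told apart. Counted as UMIs per cell, without scaling for depth, the median of all genes was higher than in adult by log2 2.04 *in vitro*, 1.49 in slice 1 day, 1.10 in slice 1 week and 1.05 in slice 3 weeks, and was 0.97 higher *in vitro* than in slice 3 weeks and lower by log2 −0.41 in slice 3 weeks than in slice 1 day. A fall described below is therefore a fall relative to the rest of the transcriptome.

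The leukocyte subunit *Itgal* was almost undetected in adult microglia and present in every cultured group. It had 1 UMI in adult replicate 1 and 0 in replicate 2, where a count of 0 allows up to 0.441 CPM (3 counts, counting error only). Its TMM-scaled level was 11.5 and 5.89 CPM *in vitro* (replicates 1 and 2), 18.9 and 11.95 CPM in slice 1 day, 15.8 and 15.4 CPM in slice 1 week, and 1.81 and 2.94 CPM in slice 3 weeks. Every cultured library lay above both adult libraries, and those of slice 3 weeks lay below all the other cultured ones. Over pooled counts the ratio to adult was 148 *in vitro* (95% counting interval 26.5 to 5855), 273 in slice 1 day (48.5 to 10850), 288 in slice 1 week (46.5 to 11882) and 49.0 in slice 3 weeks (8.54 to 1960). All 4 differences were called by edgeR, with adjusted p = 2.01e-05, 1.46e-05, 1.8e-04 and 9.22e-04 in this order. Without adult replicate 1 the log2 fold changes were 9.86, 10.6, 10.7 and 8.03 in this order. That fit has 1 adult library at 0 counts, so the values depend on its prior count and the spread comes from other groups. It is therefore no separate check of the calls. *Itgal* was higher *in vitro* than in slice 3 weeks by log2 1.79 (SE 0.39, edgeR adjusted p = 0.00502), and lower in slice 3 weeks than in slice 1 day by log2 −2.59 (SE 0.41, edgeR adjusted p = 0.00152).

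In both slice 1 day libraries and in slice 1 week replicate 1 a large part of the *Itgal* UMIs lay in cells with neutrophil or monocyte markers. In slice 1 day replicate 1 the level was 117 CPM (95% Poisson interval 71.2 to 180) in the 68 cells over the neutrophil limit and 108 CPM (75.8 to 150) in the 53 cells over the monocyte limit. In the other 397 cells it was 5.07 CPM (2.90 to 8.23), and these cells held 86.2% of the library's UMIs but 22.2% of its *Itgal* UMIs. In slice 1 day replicate 2 the 3 levels were 42.5 CPM, 63.0 CPM and 6.18 CPM (4.60 to 8.12), and the other cells held 44.0% of the *Itgal* UMIs. In slice 1 week replicate 1 the other cells had 8.93 CPM (3.85 to 17.6) and 50.0% of the *Itgal* UMIs. In the slice 3 weeks libraries all 14 and 63 *Itgal* UMIs lay in cells under both limits. With the cells over either limit left out, an alternative chosen after seeing the data, *Itgal* was still called higher than adult in all 4 cultured groups, and the fall from slice 1 day to slice 3 weeks was log2 −1.13 (SE 0.42) and no longer called (edgeR adjusted p = 0.0615). Neutrophil markers were also found in the cells under both limits, at 579 and 4347 CPM in slice 1 day and 5653 CPM in slice 1 week replicate 1, against 151401, 226422 and 256575 CPM in the cells over the neutrophil limit. How much of the *Itgal* of the cells under both limits was free RNA of other cells was not tested. T and NK cell markers were summed at 10.9 CPM or less in every library.

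*Itgb2*, the partner of alpha L and alpha M, was an abundant transcript and lower in 3 of the 4 cultured groups. Its level was 331 and 367 CPM in adult, 166 and 167 CPM *in vitro*, 229 and 209 CPM in slice 1 day, 219 and 248 CPM in slice 1 week, and 468 and 329 CPM in slice 3 weeks. The adult and slice 3 weeks libraries overlapped, and the libraries of the other 3 groups lay below all of them. Against adult the log2 fold change was −1.07 *in vitro* (SE 0.18, edgeR adjusted p = 4.94e-04), while counted as UMIs per cell *Itgb2* was higher *in vitro* by log2 1.13 (adjusted p = 0.00363). It was −0.68 in slice 1 day (SE 0.18, edgeR adjusted p = 0.00818), and as UMIs per cell 0.88 (adjusted p = 0.0276), so that the direction turned there too. That call was lost without slice 1 day replicate 2 (−0.55, adjusted p = 0.0952) and in cells thinned to 1800 UMIs (−0.53, adjusted p = 0.0524). The slice 1 week value was −0.59 (SE 0.18, edgeR adjusted p = 0.0352), a call lost without any 1 of the 4 libraries compared and under 6 other alternatives (−0.54 to −0.43), and 0.63 (adjusted p = 0.167) as UMIs per cell. The slice 3 weeks value was 0.19 (SE 0.18, edgeR adjusted p = 0.418), and as UMIs per cell 1.33 and called (adjusted p = 0.00142). Both other comparisons of *Itgb2* with slice 3 weeks were called, at log2 −1.26 for *in vitro* (SE 0.18, edgeR adjusted p = 4.2e-04) and 0.87 from slice 1 day to slice 3 weeks (SE 0.18, edgeR adjusted p = 0.0052). As UMIs per cell neither was called (−0.21, adjusted p = 0.641, and 0.45, adjusted p = 0.426), and the second call was lost without slice 1 day replicate 2 (0.81, adjusted p = 0.0565). Cells over the neutrophil limit had 361 and 329 CPM of *Itgb2* in the slice 1 day libraries, and the cells under both limits 202 and 187 CPM.

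**Figure D2:**
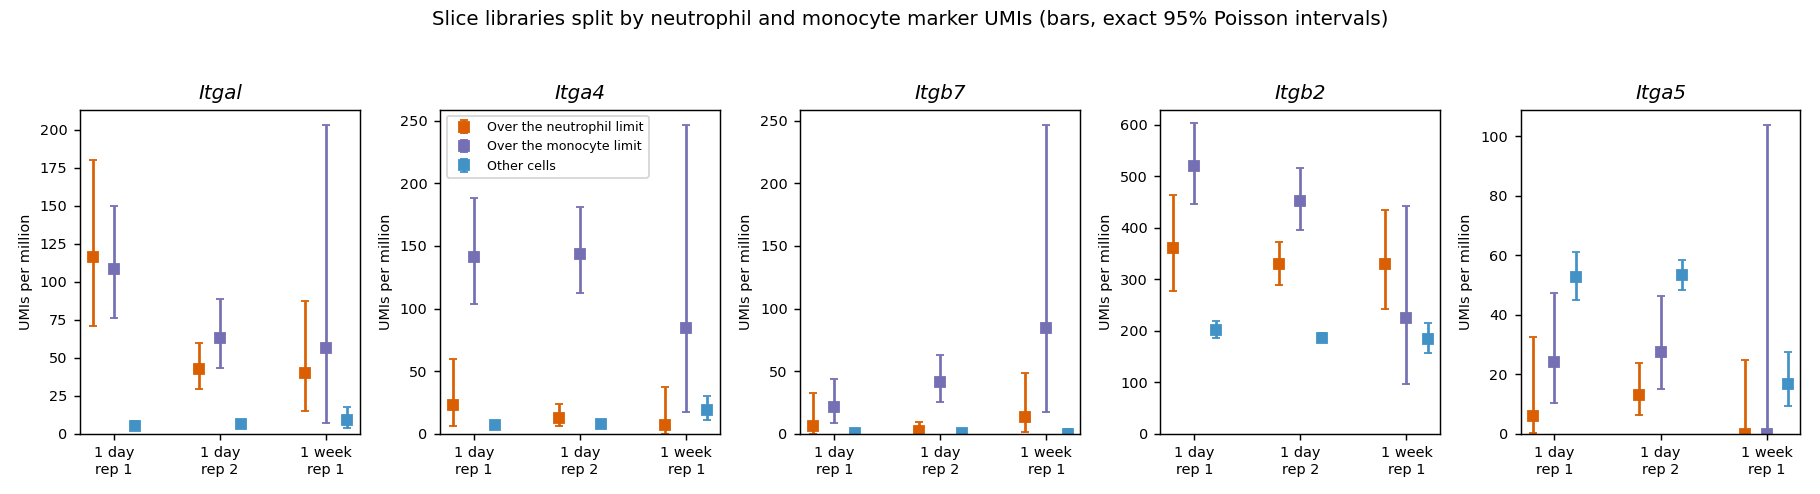
Levels of 5 integrins, in CPM, in slice 1 day replicates 1 and 2 and slice 1 week replicate 1, in cells over the neutrophil marker limit (orange), cells over the monocyte marker limit (purple) and all other cells (blue), with 95% Poisson intervals. *Itgal*, *Itga4* and *Itgb7* have higher points in cells over the monocyte limit than in other cells in all 3 libraries. *Itga5* has its highest point in the other cells. In slice 1 week replicate 1 only 5 cells were over the monocyte limit. Microglia markers were summed at 8486, 6715 and 18190 CPM in the cells over the monocyte limit of the 3 libraries. In the other cells they were summed at 13817, 12724 and 23837 CPM.

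*Itga4*, the alpha chain of the VCAM1 and fibronectin receptor, was higher in every cultured group than in adult. It is a gene of chromosome 2 (chr2:79255426-79333114, build GRCm38.p6). Its level was 0.586 and 0.644 CPM in adult, 33.2 and 30.1 CPM *in vitro*, 19.1 and 14.9 CPM in slice 1 day, 20.8 and 7.68 CPM in slice 1 week, and 2.85 and 3.26 CPM in slice 3 weeks. The order of the groups was *in vitro*, slice 1 day, slice 1 week, slice 3 weeks and adult, and of these neighbours the libraries of slice 1 day and slice 1 week overlapped. The log2 fold change against adult was 5.68 *in vitro* (SE 0.33, edgeR adjusted p = 3.66e-07), 4.77 in slice 1 day (SE 0.34, edgeR adjusted p = 3.17e-06), 4.74 in slice 1 week (SE 0.47, edgeR adjusted p = 7.49e-05; 3.67 without slice 1 week replicate 1, adjusted p = 0.028) and 2.33 in slice 3 weeks (SE 0.38, edgeR adjusted p = 8.89e-04). It was 3.35 between *in vitro* and slice 3 weeks (SE 0.26, edgeR adjusted p = 8.05e-06) and −2.43 from slice 1 day to slice 3 weeks (SE 0.27, edgeR adjusted p = 2.29e-04). *Itga4* was detected in 32.2% and 31.9% of *in vitro* cells and in 0.211% and 0.142% of adult cells, and in cells thinned to 1800 UMIs in 5.67% and 4.51% against 0.148% and 0.157%.

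Monocyte and border macrophage markers were read beside *Itga4*. Summed over a library, monocyte markers were at 52.5 and 38.4 CPM *in vitro*, where *Itga4* was highest. They were at 230 and 424 CPM in slice 1 day and 904 and 49.3 CPM in slice 1 week. In slice 3 weeks they were at 12.1 and 18.9 CPM, and in adult at 17.9 and 9.56 CPM. In the slice 1 day libraries the level of *Itga4* was 141 and 144 CPM in cells over the monocyte limit. It was 6.97 and 7.51 CPM in the cells under both limits. The limit was set on the monocyte markers, so these differ between the classes by choice. They were summed at 1982 and 1943 CPM in the first cells and at 31.4 and 95.1 CPM in the second. The part of free RNA in the *Itga4* of the second was not tested. With cells over either limit left out its log2 fold change in slice 1 day was 3.67 (SE 0.35, edgeR adjusted p = 1.18e-05) against adult, and −1.18 from slice 1 day to slice 3 weeks (SE 0.27, edgeR adjusted p = 0.0081). *In vitro*, with 2.81% and 2.20% of cells over a limit, the value without them was 5.88. The 7 markers of border macrophages, all detected *in vitro*, were summed at 2294 and 2210 CPM there, between 55.1 and 305 CPM in the slice libraries and at 11.8 and 7.65 CPM in adult, and their part in the level of *Itga4* was not tested. The promoter of *Itga4* is shown as that of the member with the largest rise against adult after *Itgal*. It runs from 250 bases before to 50 after the gene's start, at chr2:79255176-79255475 on the plus strand of GRCm38.p6, from RefSeq. Capitals mark the letters of the GC box GGGCGG on either strand.
Itga4 promoter: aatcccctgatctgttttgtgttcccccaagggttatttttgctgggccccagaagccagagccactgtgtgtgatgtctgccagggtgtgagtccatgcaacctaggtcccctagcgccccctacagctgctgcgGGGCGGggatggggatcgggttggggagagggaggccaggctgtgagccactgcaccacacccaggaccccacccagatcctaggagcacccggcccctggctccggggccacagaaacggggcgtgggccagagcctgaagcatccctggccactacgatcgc

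The other partner of alpha 4, *Itgb7*, was close to the limit of detection outside the early slices. It had 3 and 1 UMIs in adult, 3 and 5 *in vitro* and 2 and 5 in slice 3 weeks, against 11 and 29 in slice 1 day and 5 and 0 in slice 1 week. The TMM-scaled level was 2.88 and 2.99 CPM in slice 1 day, 4.94 and 0 CPM in slice 1 week, and 0.259 CPM or less in the libraries of the other groups. The 0 of slice 1 week replicate 2 allows up to 7.78 CPM, more than any library showed. *Itgb7* was called higher than adult in slice 1 day (log2 3.93, SE 0.73, edgeR adjusted p = 0.0011) and in slice 1 week (4.13, SE 1.06, edgeR adjusted p = 0.0145), the latter only with replicate 1 in the fit (−4.42 on 0 counts without it). Slice 3 weeks was lower than slice 1 day by log2 −3.56 (SE 0.67, edgeR adjusted p = 0.00346). With no filter on low counts the 3 values were 3.96, 4.04 and −3.51 (adjusted p = 1.11e-04, 0.0112 and 5.06e-04). Of the *Itgb7* UMIs of slice 1 day, 63.6% and 72.4% lay in cells over the monocyte limit, which held 9.08% and 5.33% of all UMIs. With those and the neutrophil-marker cells left out *Itgb7* did not pass the filter on low counts in any comparison.

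**Figure D3:**
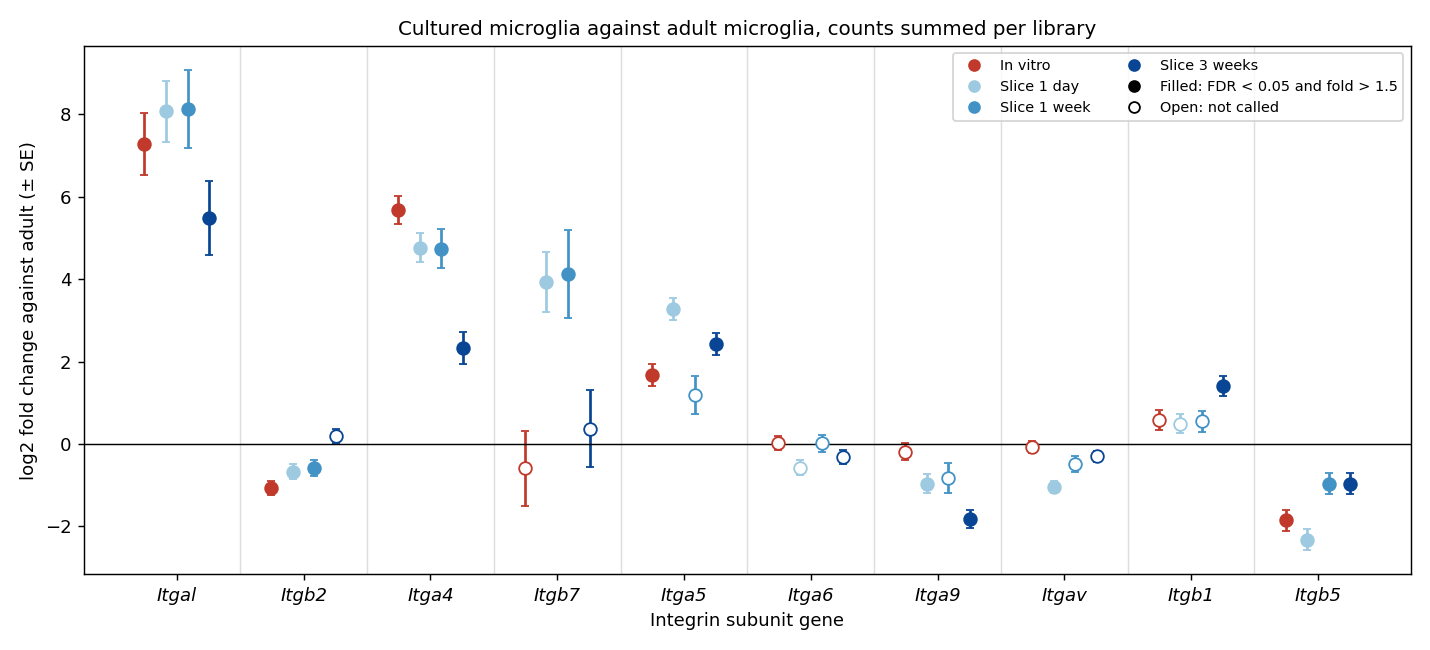
Fitted log2 fold changes against adult (vertical axis, with SE) of the 10 integrins in the 4 cultured groups, filled where FDR was under 0.05 and the fold change over 1.5. *Itgal*, *Itga4*, *Itga5* and *Itgb1* lie above 0 and *Itga9*, *Itgav* and *Itgb5* below 0 in all 4 groups, whether called or not (each of the last 3 lies above 0 in at least 3 groups when counted as UMIs per cell), and the fitted values of *Itgal* rest on 1 adult UMI and depend on the prior count of the fit.

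*Itga5*, the alpha chain of the fibronectin receptor, was highest in slice 1 day. It lies on chromosome 15 (chr15:103344286-103366791). Its level was 4.91 and 4.77 CPM in adult, 12.8 and 18.0 CPM *in vitro*, 45.9 and 47.7 CPM in slice 1 day, 14.8 and 2.56 CPM in slice 1 week, and 26.4 and 25.6 CPM in slice 3 weeks. The libraries of slice 1 day and of slice 3 weeks lay apart from each other and from all other groups, and those of slice 1 week, with 15 and 1 UMIs, overlapped with *in vitro* and adult. The log2 fold change against adult was 1.67 *in vitro* (SE 0.26, edgeR adjusted p = 3.65e-04), 3.27 in slice 1 day (SE 0.27, edgeR adjusted p = 7.55e-06) and 2.42 in slice 3 weeks (SE 0.27, edgeR adjusted p = 8.93e-05). The slice 1 week value was 1.19 (SE 0.47, edgeR adjusted p = 0.0794), not called. It was −0.89 without slice 1 week replicate 1, and it was called higher without replicate 2 (1.58, adjusted p = 0.0179) and under 5 other alternatives, among them DESeq2 (1.24, adjusted p = 0.0292) and all barcodes (1.33, adjusted p = 0.0268). *Itga5* was lower *in vitro* than in slice 3 weeks by log2 −0.75 (SE 0.23, edgeR adjusted p = 0.0276), a call lost without either *in vitro* library (−0.45 and −0.94) or without slice 3 weeks replicate 2 (−0.71) and in the fit of the 2 groups alone (−0.71), and as UMIs per cell it was 0.32. It fell by 0.85 on the log2 scale from slice 1 day to slice 3 weeks (SE 0.24, edgeR adjusted p = 0.0217), a call lost without either slice 1 day library (−0.88 and −0.81) or without slice 3 weeks replicate 2 (−0.82). *Itga5* in slice 1 day was at 52.6 and 53.2 CPM in cells under both marker limits, and at 27.6 CPM or less in the cells over either one. Its promoter is at chr15:103366742-103367041 on the minus strand, with the GC box in capitals (CCGCCC where the match is on the other strand).
Itga5 promoter: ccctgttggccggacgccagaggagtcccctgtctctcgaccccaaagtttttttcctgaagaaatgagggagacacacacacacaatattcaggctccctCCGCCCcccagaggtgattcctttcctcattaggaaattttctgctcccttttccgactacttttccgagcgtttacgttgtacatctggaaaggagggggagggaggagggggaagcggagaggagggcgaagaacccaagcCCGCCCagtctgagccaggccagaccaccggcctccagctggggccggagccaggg

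*Itgb1*, the beta chain shared by alpha 4, alpha 5, alpha 6 and alpha 9, was highest in slice 3 weeks. It was at 105 and 101 CPM in adult, 148 and 161 CPM *in vitro*, 149 and 142 CPM in slice 1 day, 124 and 184 CPM in slice 1 week, and 202 and 347 CPM in slice 3 weeks. Both slice 3 weeks libraries lay above all others, at an SD of 102 CPM between them. Against adult the log2 fold change was 1.41 in slice 3 weeks (SE 0.24, edgeR adjusted p = 0.00117), and 0.94 and 1.78 within the 2 study labels, 1 library against 1. It was 0.59 *in vitro* (SE 0.24, edgeR adjusted p = 0.058), 0.49 in slice 1 day (SE 0.24, edgeR adjusted p = 0.104) and 0.54 in slice 1 week (SE 0.26, edgeR adjusted p = 0.141), none of them called. As UMIs per cell all 3 were called (2.75, 2.03 and 1.74), slice 1 day was also called with the cells over the marker limits left out (0.61, adjusted p = 0.0459), and slice 1 week in the fit of the 2 groups alone (0.60, adjusted p = 0.0467). Both *in vitro* libraries lay above adult, and the *in vitro* difference was called under 8 alternatives, among them RLE factors (0.65, adjusted p = 0.0362), DESeq2 (0.65, adjusted p = 0.0202) and the cells over the marker limits left out (0.69, adjusted p = 0.0259). *In vitro* was lower than slice 3 weeks by log2 −0.83 (SE 0.24, edgeR adjusted p = 0.0196) and slice 3 weeks higher than slice 1 day by 0.92 (SE 0.24, edgeR adjusted p = 0.0164). Neither was called without slice 3 weeks replicate 2 (−0.32 and 0.49). The first was not called without either *in vitro* library (−0.69 and −0.81) or in the fit of the 2 groups alone (−0.78), nor the second without either slice 1 day library (0.95 and 0.89). As UMIs per cell they were 0.27 and 0.45, and not called.

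**Figure D4:**
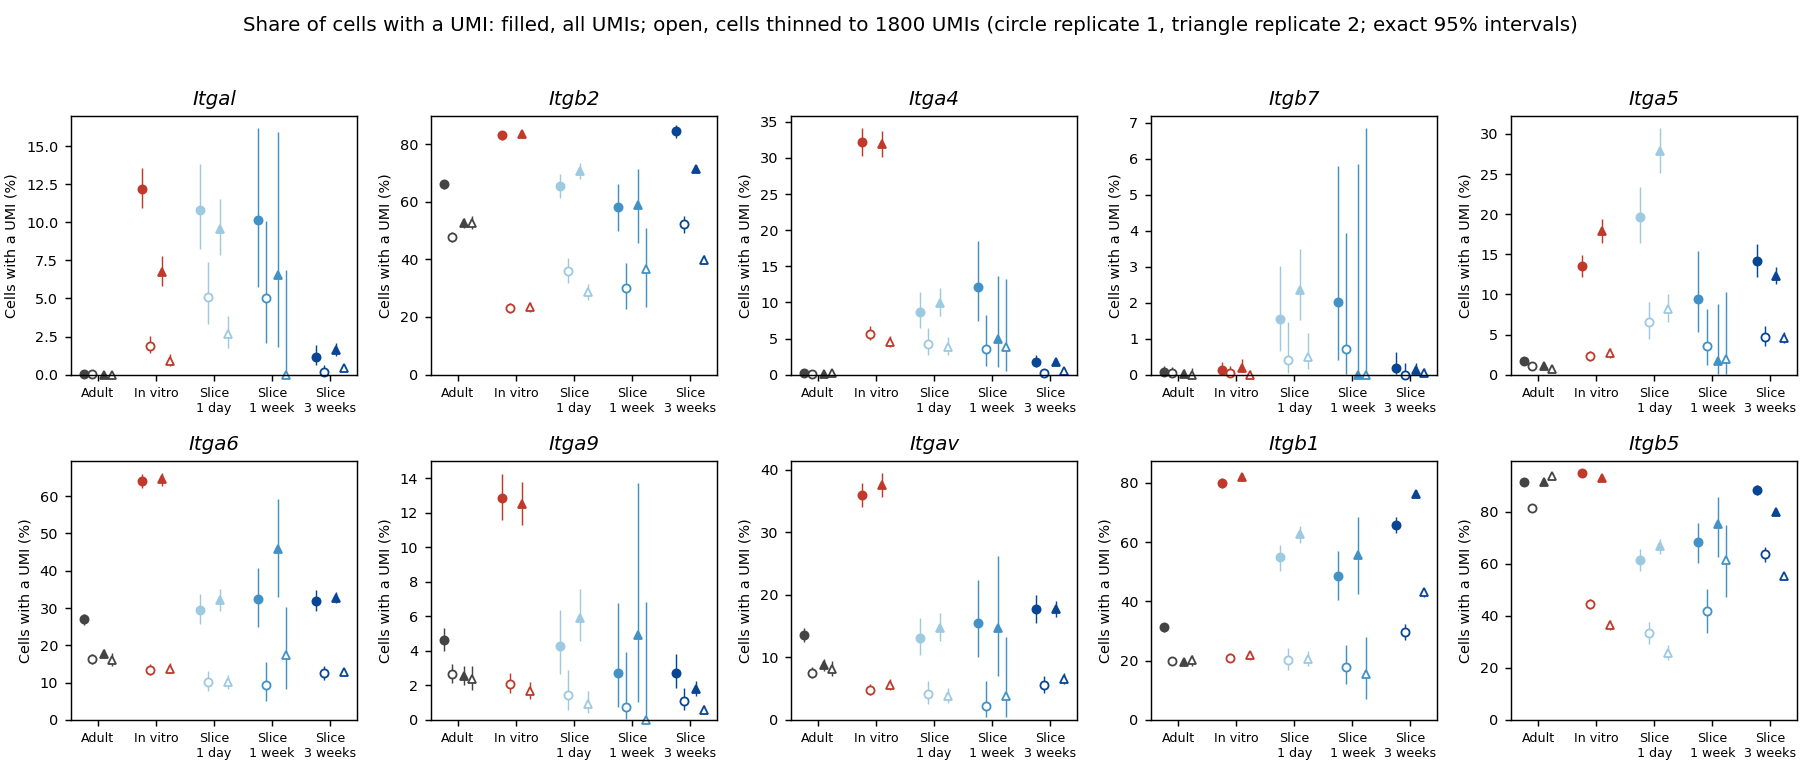
Share of cells with at least 1 UMI of each integrin (vertical axes, percent) in each library, from all UMIs (filled) and after thinning every cell to 1800 UMIs (open), with exact 95% binomial intervals. The *in vitro* shares of *Itga6*, *Itgav* and *Itgb1*, far above adult with all UMIs, come to the level of adult or below it or, for *Itgb1*, within 2 percentage points above it after thinning.

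The laminin receptor chain *Itga6* moved least. It was at 92.4 and 90.0 CPM in adult, 92.4 and 91.9 CPM *in vitro*, 65.8 and 56.7 CPM in slice 1 day, 76.1 and 115 CPM in slice 1 week, and 65.5 and 80.8 CPM in slice 3 weeks. Both slice 1 day libraries, both slice 3 weeks libraries and slice 1 week replicate 1 lay below both adult libraries. The slice 1 day difference passed the FDR (edgeR adjusted p = 0.0185) and not the fold limit (log2 −0.58, SE 0.18), and none of the 6 comparisons was called. The slice 1 day difference was called with library size alone (−0.70, adjusted p = 0.0102), with the study label as covariate (−0.65, adjusted p = 0.0191) and without slice 1 day replicate 1 (−0.68, adjusted p = 0.0333). As UMIs per cell *Itga6* was called higher than adult *in vitro* (2.19), in slice 1 day (0.95) and in slice 1 week (1.22), and higher *in vitro* than in slice 3 weeks (1.42). *Itga6* was detected in 64.1% and 64.5% of *in vitro* cells against 26.9% and 17.7% of adult cells, and in 13.5% and 13.8% against 16.3% and 16.1% after thinning.

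*Itga9*, whose product binds tenascin C, osteopontin and VCAM1, was low and lowest in slice 3 weeks. Its level was 13.6 and 11.7 CPM in adult, 11.7 and 10.6 CPM *in vitro*, 6.55 and 6.49 CPM in slice 1 day, 6.92 and 7.68 CPM in slice 1 week, and 4.14 and 3.21 CPM in slice 3 weeks. All slice libraries lay below all adult and *in vitro* libraries. Against adult the log2 fold change was −1.82 in slice 3 weeks (SE 0.22, edgeR adjusted p = 1.6e-04), with −1.68 and −1.82 within the 2 study labels, and −0.96 in slice 1 day (SE 0.23, edgeR adjusted p = 0.00447). As UMIs per cell the first was −0.73 (adjusted p = 0.142) and the second 0.57 (adjusted p = 0.236). The second call was also lost without slice 1 day replicate 2 (−0.90, adjusted p = 0.0564) and in thinned cells (−1.06, adjusted p = 0.057). The slice 1 week value was −0.83 (SE 0.36, edgeR adjusted p = 0.106), with 7 and 3 UMIs, and was called with library size alone (−1.05) and with the cells over the marker limits left out (−1.32). *In vitro* it was −0.19 (SE 0.20, edgeR adjusted p = 0.44), and 1.96 and called as UMIs per cell. *Itga9* was higher *in vitro* than in slice 3 weeks by log2 1.63 (SE 0.22, edgeR adjusted p = 2.97e-04). The difference from slice 1 day to slice 3 weeks was −0.86 (SE 0.24, edgeR adjusted p = 0.0228), a call lost without either slice 1 day library (−0.86 in each case) or without slice 3 weeks replicate 2 (−0.64), in thinned cells (−0.58) and in the fit of the 2 groups alone (−0.85).

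*Itgav*, the alpha chain of the vitronectin receptors, differed from adult by the test in slice 1 day alone among the 4 cultured groups. It was at 40.8 and 41.5 CPM in adult, 37.6 and 40.3 CPM *in vitro*, 21.2 and 18.8 CPM in slice 1 day, 29.6 and 28.1 CPM in slice 1 week, and 30.0 and 36.3 CPM in slice 3 weeks. Every cultured library lay below both adult libraries, and those of slice 1 day lay below all others. The log2 fold change was −1.05 in slice 1 day (SE 0.15, edgeR adjusted p = 2.21e-04), and 0.50 (adjusted p = 0.206) as UMIs per cell. It was −0.08 *in vitro* (SE 0.14, edgeR adjusted p = 0.66), −0.50 in slice 1 week (SE 0.20, edgeR adjusted p = 0.0815) and −0.30 in slice 3 weeks (SE 0.14, edgeR adjusted p = 0.112). The slice 1 week difference was called with library size alone (−0.72), and as UMIs per cell *Itgav* was called higher than adult *in vitro* (2.10) and in slice 3 weeks (0.78), and higher *in vitro* than in slice 3 weeks (1.32). Slice 3 weeks was higher than slice 1 day by log2 0.75 (SE 0.15, edgeR adjusted p = 0.0048), a call lost without slice 1 day replicate 2 (0.66), in thinned cells (0.60) and as UMIs per cell (0.28).

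*Itgb5*, a partner of alpha V in binding vitronectin and the bridging protein MFGE8, was lower in every cultured group than in adult. It lies on chromosome 16 (chr16:33829665-33949338). Its level was 867 and 1378 CPM in adult, 351 and 268 CPM *in vitro*, 254 and 195 CPM in slice 1 day, 505 and 650 CPM in slice 1 week, and 632 and 518 CPM in slice 3 weeks. Both adult libraries lay above all cultured ones, at an SD of 362 CPM between them. The log2 fold change against adult was −1.86 *in vitro* (SE 0.25, edgeR adjusted p = 1.36e-04), and 0.40 (adjusted p = 0.321) as UMIs per cell. It was −2.32 in slice 1 day (SE 0.26, edgeR adjusted p = 4.57e-05), and −0.72 (adjusted p = 0.0812) as UMIs per cell. The slice 1 week value was −0.96 (SE 0.25, edgeR adjusted p = 0.016), not called without adult replicate 2 (−0.60) or slice 1 week replicate 1 (−0.76), and 0.31 as UMIs per cell. The slice 3 weeks value was −0.97 (SE 0.25, edgeR adjusted p = 0.011), not called without adult replicate 2 (−0.59) or slice 3 weeks replicate 2 (−0.77), and 0.23 as UMIs per cell. Within the 2 study labels the slice 3 weeks difference was −0.46 and −1.41.

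Among the cultures *Itgb5* was lower *in vitro* than in slice 3 weeks by log2 −0.89 (SE 0.25, edgeR adjusted p = 0.0169), a call lost without *in vitro* replicate 2 (−0.64) or slice 3 weeks replicate 1 (−0.74), and 0.17 as UMIs per cell. It was higher in slice 3 weeks than in slice 1 day by log2 1.36 (SE 0.25, edgeR adjusted p = 0.00323), and by 0.95 as UMIs per cell (adjusted p = 0.0627). *Itgb5* was detected in 91.4% of the cells of both adult libraries, 94.9% and 92.8% *in vitro*, 61.4% and 66.8% in slice 1 day, 68.2% and 75.4% in slice 1 week, and 88.3% and 79.9% in slice 3 weeks. After thinning it was 81.2% and 93.9% in adult, 44.4% and 36.4% *in vitro*, and 33.3% and 25.8% in slice 1 day. The slice 1 day level was 69.9 and 25.8 CPM in cells over the neutrophil limit, 373 and 287 CPM in cells over the monocyte limit, and 263 and 210 CPM in cells under both limits (replicates 1 and 2). The promoter, at chr16:33829415-33829714 on the plus strand, is that of the member lowered in all 4 cultured groups, with GC boxes in capitals.
Itgb5 promoter: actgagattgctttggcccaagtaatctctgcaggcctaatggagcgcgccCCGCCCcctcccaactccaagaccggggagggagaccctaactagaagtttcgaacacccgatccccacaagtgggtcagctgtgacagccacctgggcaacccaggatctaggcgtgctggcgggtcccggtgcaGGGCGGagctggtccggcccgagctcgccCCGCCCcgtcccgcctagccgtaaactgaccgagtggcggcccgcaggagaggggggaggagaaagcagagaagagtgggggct

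The 3 sequences were 58.7% to 65.7% G and C, beside a median of 52.7% over the 32851 RefSeq promoters of the same length. The GC box GGGCGG (on either strand) was found 1 time for *Itga4*, 2 times for *Itga5* and 3 times for *Itgb5*, and in 35.7% of all promoters. The ETS letters AGGAAGT, the AP-1 letters TGANTCA, the RUNX letters TGTGGTT and the TATA box TATAAA were searched on both strands too, and none was found in these 3 windows. They are in 9.35%, 7.81%, 5.27% and 13.6% of all promoters. The table matched 7 of the 10 members by symbol. The window of *Itgb1*, also at the gene's start, held 1 GC box and none of the other letters. The windows of *Itga9*, *Itgav* and *Itgb7* belong to starts inside the gene, downstream of its first base, and are not described, and the promoters of *Itga6*, *Itgal* and *Itgb2* were not analysed here.

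For each member the gene with the nearest profile was looked up. Such a gene exists for any member, and no reference distance was computed. After centring on each gene's own mean log2 CPM over the 10 libraries, the nearest gene (among those whose average log2 CPM reached 5) was taken by the root mean square difference. For *Itga4* it was *Iqgap1* (0.52, beside a spread of 1.96 for *Itga4* itself) and for *Itgal* it was *Pla2g7* (0.56, beside 2.43). For *Itgb5* it was *Ctss*, a lysosomal protease of microglia (0.21, beside 0.83), for *Itgb1* *Golgb1* (0.17, beside 0.49) and for *Itgb2* *Rpn2* (0.15, beside 0.47). *Itga9* lay nearest to *Cib1* (0.18, beside 0.63), *Itgav* to *Tmem50a* (0.13, beside 0.38), *Itga6* to *Uckl1* (0.12, beside 0.29), *Itga5* to *Speg* (0.65, beside 1.34) and *Itgb7* to *Gsr* (0.98, beside 1.72). 

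Of 16 other integrin subunits in the tables, 5 had counts enough for the test, of which 0 were higher and 4 lower than adult *in vitro* and 1 higher and 1 lower in slice 3 weeks. The shares of all genes were 22.4% higher and 28.5% lower *in vitro*, and for slice 3 weeks they were 18.0% and 17.5%, and they apply to the lists that follow as well. *Itgam*, which encodes the CD11b of the sort gate, was lower *in vitro* than in adult by log2 −0.91 (SE 0.15, edgeR adjusted p = 5.24e-04), from 195 ± 20.5 to 104 ± 4.99 CPM (SD, n = 2), and at 262 ± 6.54 CPM in slice 3 weeks. The others called lower *in vitro* were *Itgax*, *Itgb3* and *Itgae*, named here after their values were seen. *Itgb3*, a partner of alpha V, was at 12.1 ± 1.24 CPM in adult, 0.233 ± 0.147 CPM *in vitro* and 11.9 ± 0.935 CPM in slice 3 weeks, and its fall *in vitro* was log2 −5.62 (SE 0.40, edgeR adjusted p = 1.47e-06).

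Integrin ligands moved in both directions. Of 18 tested, 7 were higher and 7 lower *in vitro*, and 7 were higher and 5 lower in slice 3 weeks, against adult, with medians of log2 0.24 and 0.85. The median log2 fold change of all genes was −0.11 and −0.03. *Fn1*, fibronectin, was at 0.303 ± 0.118 CPM in adult, 68.9 ± 41.2 CPM *in vitro* and 195 ± 55.9 CPM in slice 3 weeks (n = 2), and *Spp1*, osteopontin, at 6.71 ± 2.35, 5281 ± 1963 and 2822 ± 2219 CPM. *Jam2* and *F11r*, adhesion molecules that bind leukocyte integrins, were lower than adult by log2 −9.48 (SE 0.35, edgeR adjusted p = 2.88e-08) and −4.76 (SE 0.26, edgeR adjusted p = 2.45e-07) *in vitro*. In slice 3 weeks they were lower by log2 −0.83 (SE 0.21, edgeR adjusted p = 0.00923) and −1.79 (SE 0.23, edgeR adjusted p = 1.89e-04).

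Of 23 genes that activate integrins or tie them to actin, 5 were higher and 7 lower *in vitro*, and 4 higher and 6 lower in slice 3 weeks, with medians of log2 −0.05 and −0.24. *Apbb1ip*, an adaptor between the GTPase Rap1 and talin, was lower *in vitro* by log2 −1.90 (SE 0.15, edgeR adjusted p = 3.23e-06). *Rassf5*, a Rap1 effector that acts on alpha L beta 2, was lower in both (−1.64 and −1.62). *Actn4*, an actin cross-linker, was higher in both (1.45 and 0.83), *Actn1* *in vitro* (1.38) and the talin gene *Tln1* in slice 3 weeks (0.67, SE 0.19, edgeR adjusted p = 0.0184), while *Lims1* was lower there (−1.02).

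Of 6 genes whose products hold integrins inactive, 3 were higher and 1 lower *in vitro*, and 2 higher and 1 lower in slice 3 weeks, with medians of log2 0.39 and 0.07. *Flna*, filamin A, which competes with talin for the beta chain, rose by log2 2.88 *in vitro* and 1.56 in slice 3 weeks, *Itgb1bp1* rose by 0.71 *in vitro*, and *Dok1* fell in both (−0.91 and −0.98). Of 16 signalling genes downstream of integrins, 3 were higher and 5 lower *in vitro*, and 4 higher and 4 lower in slice 3 weeks, with medians of log2 0.15 and 0.01. The Src family kinase gene *Lyn* was lower *in vitro* (−1.13), while the GTPase genes *Rac2* *in vitro* (1.06) and *Rhoa* in slice 3 weeks (0.63) were higher and *Vav1* lower in slice 3 weeks (−0.59).

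Of 7 surface proteins that associate with integrins, 2 were higher and 3 lower *in vitro*, and 4 higher and 1 lower in slice 3 weeks, with medians of log2 −0.01 and 0.93. The scavenger receptor gene *Cd36* was at 0.312 ± 0.0768 CPM in adult, 234 ± 67.5 CPM *in vitro* and 9.76 ± 1.02 CPM in slice 3 weeks. *Sdc4*, a heparan sulfate proteoglycan, was higher *in vitro* (3.03), *Plaur*, the urokinase receptor, in slice 3 weeks (3.11, SE 0.27, edgeR adjusted p = 1.81e-05), and *Cd151* and *Slc3a2* were lower *in vitro* (−0.95 and −0.84) and *Cd47* in slice 3 weeks (−0.79).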

How the data were processed

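FACS-sorted microglia were profiled in 10 single cell libraries made with the 10x Genomics 3' kit v2. The authors deposited 1 table per library of unnormalized UMI counts for each gene in each barcode. Per the submitters' processing notes the counts came from Cell Ranger 1.3.0 and build mm10, and the place of its aggregate step relative to the tables is not given in the sources used here. A gene missing from a table was taken as 0, and 14 symbols listed more than once (among them *Itgam*) were summed.

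The cell was not taken as a replicate. Cells were filtered by the 3 limits given above (19059 kept, 578 removed). The study's further removal of outliers on t-SNE was not repeated. The study kept fewer slice 1 week cells than the 148 and 61 used here. Its smallest and largest cell counts in the other samples were also below the 518 and 3799 of these libraries. Counts were summed per library, filtered with filterByExpr (minimum 10), scaled with TMM and given to the quasi-likelihood test of edgeR 4.0.16 in R 4.3.3, all 5 groups in 1 fit, and p-values were adjusted by Benjamini and Hochberg over the 12155 genes tested. The biological coefficient of variation was 18.2%. A permutation test of 2 libraries per group has a lowest two-sided p of 0.333, so levels and shares of cells are given without p. Intervals are 95% (exact Poisson or binomial, or conditional binomial for ratios) and cover counting error only. Thinning to 1800 UMIs left 16910 cells and dropped 2149 that were shallower, 2031 of them among the 7326 adult cells. Doublets were not called, beyond the upper limit on UMIs. In simulated data of *in vitro* against adult 98 of 100 genes changed by log2 2 were recovered and 36 of 100 changed by log2 1. The simulation had 1 common dispersion, 1 mean profile for all groups and 200 changed genes of 12155. In the data far more genes were called, so these shares do not give the recovery there. Python 3.11.15 was used for the rest.

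The members and the gene lists were chosen with earlier results of these data known. All 10 members are named, and of each other list the 2 largest called rises and falls above an average log2 CPM of 5, *in vitro* or in slice 3 weeks against adult. The study label and replicate number were tried as covariates. Same-numbered adult and slice 3 weeks libraries share a study label, and other numbers pair nothing. Alternatives are DESeq2 1.42.0, other scalings, filters and cell sets, fits of 2 groups alone, and each library left out. The rule planned for leaving out other leukocytes, at least 3 different markers, took 100% of slice 1 week replicate 1 and 99.3% of slice 1 day replicate 2, so it was used only for *in vitro*, adult and slice 3 weeks, and the marker limits were added after seeing the data. A gene of the signalling list that the rule for named genes picks is counted in its list and is not reported here.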

Additional observations from a re-analysis of the deposited data

How the results depend on the processing

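Each member's log2 fold change was recomputed in each comparison under the alternatives. Of 924 such values, 801 kept their direction and their side of the thresholds, 50 kept the direction and lost the call, 29 gained one and 44 turned the sign. Of the last, 21 were from counting UMIs per cell, under which the median over all genes was log2 2.04, 1.49, 1.10, 1.05, 0.97 and −0.41 in the 6 comparisons. Library size alone moved that median to −0.42 *in vitro*, −0.18 in slice 1 day, −0.30 in slice 1 week and −0.24 in slice 3 weeks against adult, and to −0.20 between *in vitro* and slice 3 weeks. The share of higher genes among those called was 44.0% *in vitro*, 52.5% in slice 1 week and 50.6% in slice 3 weeks, against 29.9%, 37.7% and 35.8% with library size alone, and 94.5%, 97.0% and 95.3% with UMIs per cell. For the other 3 comparisons it was 49.5%, 39.9% and 52.1%, and 95.1%, 90.5% and 13.6% with UMIs per cell.

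With UMIs per cell 10341 genes were called *in vitro* against adult in place of 6183, 5511 in slice 1 week in place of 3473, 7136 in slice 3 weeks in place of 4310, and 7082 between *in vitro* and slice 3 weeks in place of 4051. The integrins called were 8 in place of 5 *in vitro*, all higher, and 5 in place of 9 from slice 1 day to slice 3 weeks, all lower. In thinned cells 1747 genes were called in slice 1 week, and in slice 1 day 5 of 9 integrins in place of 8 of 10, beside 4618 of 10739 genes in place of 6110 of 12155.

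With 1 library left out, the genes called in slice 1 week against adult ranged from 1445 (without replicate 1) to 2987, and the integrins from 2 (without slice 1 week replicate 1, and 3 without adult replicate 2) to 5. Between *in vitro* and slice 3 weeks they ranged from 2468 (without *in vitro* replicate 2) to 4790 and from 4 (without the same library) to 6. From slice 1 day to slice 3 weeks they ranged from 1442 (without slice 1 day replicate 2) to 4285 and from 4 (without the same library) to 9. *In vitro* against adult the integrin count was 5 with each library left out, in slice 1 day it was 6 to 9 and in slice 3 weeks 5 to 6.

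The signs that turned with UMIs per cell were, *in vitro* against adult, those of *Itga9* (1.96), *Itgav* (2.10), *Itgb2* (1.13), *Itgb5* (0.40) and *Itgb7* (1.42). In slice 1 day they were those of *Itga6* (0.95), *Itga9* (0.57), *Itgav* (0.50) and *Itgb2* (0.88), in slice 1 week *Itga9* (0.36), *Itgav* (0.70), *Itgb2* (0.63) and *Itgb5* (0.31), and in slice 3 weeks *Itga6* (0.77), *Itgav* (0.78) and *Itgb5* (0.23). Between *in vitro* and slice 3 weeks they were *Itga5* (0.32), *Itgb1* (0.27), *Itgb5* (0.17) and *Itgb7* (0.092), and from slice 1 day to slice 3 weeks *Itga6* (−0.19). Of the other values that turned, *Itgb7* in slice 1 week had been called (4.13) and was −4.42 without slice 1 week replicate 1, and the rest were not called in either setting. *In vitro* against adult *Itga6* was −0.29 with library size alone and −0.055 with the study label as covariate, and *Itgav* was 0.092 without the low count filter, 0.052 in the fit of 2 groups, 0.064 with all barcodes, 0.033 without cells with 3 markers and 0.023 without cells over the limits. In slice 1 week *Itga6* was −0.19 with library size alone, −0.038 without the filter, −0.064 with the study label and −0.35 in thinned cells. *Itgb2* in slice 3 weeks was −0.00997 with library size alone, and *Itgav* between *in vitro* and slice 3 weeks −0.11 in thinned cells.

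With 1 library left out, *Itga6* ranged from −0.0065 to 0.14, *Itga9* from −0.29 to 0.024 and *Itgav* from −0.069 to 0.094 *in vitro* against adult. For slice 1 week *Itga5* ranged from −0.89 to 1.58, *Itga6* from −0.30 to 0.36 and *Itgb7* from −4.42 (0 counts in the library kept) to 4.65, *Itga4* from 3.67 (without slice 1 week replicate 1, and called) to 5.04, and *Itgb2* in slice 3 weeks from −0.087 to 0.48.

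With the replicate number as a block 6087, 5982, 3367, 4156, 3896 and 3101 genes and 5, 8, 5, 6, 7 and 9 integrins were called in the 6 comparisons, and no member's call changed. Deviations of same-numbered libraries correlated at 0.04 to 0.06, and at −0.11 for slice 1 day and slice 3 weeks, where a crossed block called 3110 genes and 9 integrins. Depth limits slice 1 week most, where *Itga4*, *Itga5*, *Itga9* and *Itgb7* had 3, 1, 3 and 0 UMIs in replicate 2. It also limits *Itgal*, *Itgb7* and *Itga4* in adult, with 1, 4 and 13 UMIs over both libraries. Why values moved between settings was not tested.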
